A study of Homo sapiens with 6 samples.

Results

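The genes described here are the E2F transcription factors *E2F1*, *E2F2*, *E2F3*, *E2F4*, *E2F5*, *E2F7* and *E2F8* and the pocket proteins *RB1*, *RBL1* and *RBL2*. These 10 genes were chosen by symbol from the 62700 genes of the deposited tables. No cut on their values was used, but earlier results of these data were known. All 10 reached the mean of 1 TPM that was required for the test, as did 14020 genes in all. RNA-seq of poly-A RNA covered 6 libraries of the human cell line SK-Hep1, 3 of control cells (titled shControl, genotype label WT) and 3 of cells with RAB30-DT knockdown (titled shRAB30-DT). Per the study's methods, stable lines were made with lentiviral pLKO.1 vectors, control vectors included, and puromycin selection, so that the titles of the control libraries fit a vector control whereas their genotype label names none. The labels number the libraries of each group as rep1 to rep3 without stating which of the study's shRNAs the knockdown libraries carry or whether they came from separate cultures, and p-values therefore measure only the spread between these libraries, which may be technical. *RAB30-DT* is a long non-coding RNA, and the comparison asked how gene expression differs after its depletion.

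E2F proteins bind promoters of genes for DNA replication and cell division, mostly as dimers with a DP protein. *E2F1*, *E2F2* and *E2F3* are classed as activators, *E2F4* and *E2F5* as repressors that act with pocket proteins, and *E2F7* and *E2F8* as atypical repressors that bind DNA without DP. Pocket proteins hold E2F in check and recruit chromatin-modifying cofactors until cyclin-dependent kinases phosphorylate them in G1, and with E2F4 or E2F5 and the MuvB proteins RBL1 and RBL2 form the DREAM complex, which silences cell cycle genes in resting cells. In liver, E2F7 and E2F8 are known for their part in the polyploidy of hepatocytes.

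Some E2F genes are themselves classed as E2F targets, so the promoter windows of the genes were searched for the E2F motif, written here as TTTCCCGC, TTTCGCGC, TTTGCCGC or TTTGGCGC on either strand. RefSeq windows (GRCh38.p14, 250 bases before to 50 after the start) were used for 7 of the 10 genes. A match was found in 4 of these genes, *E2F1*, *E2F2*, *E2F3* and *RBL1*, and in 3.99% of all 27305 genes with a window. These 4 windows are shown, 5′ to 3′ on the strand of the gene, because they carry the matches, which are in capitals (as GCGGCAAA or GCGGGAAA where the motif lies on the other strand).

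*E2F1* (chr20:33686336-33686635, minus strand): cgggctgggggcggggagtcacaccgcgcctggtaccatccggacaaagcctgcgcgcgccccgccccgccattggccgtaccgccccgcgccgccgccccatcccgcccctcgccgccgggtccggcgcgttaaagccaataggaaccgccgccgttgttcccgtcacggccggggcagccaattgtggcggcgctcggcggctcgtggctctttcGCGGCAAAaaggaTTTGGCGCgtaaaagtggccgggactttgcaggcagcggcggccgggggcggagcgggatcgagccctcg

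*E2F2* (chr1:23531184-23531483, minus strand): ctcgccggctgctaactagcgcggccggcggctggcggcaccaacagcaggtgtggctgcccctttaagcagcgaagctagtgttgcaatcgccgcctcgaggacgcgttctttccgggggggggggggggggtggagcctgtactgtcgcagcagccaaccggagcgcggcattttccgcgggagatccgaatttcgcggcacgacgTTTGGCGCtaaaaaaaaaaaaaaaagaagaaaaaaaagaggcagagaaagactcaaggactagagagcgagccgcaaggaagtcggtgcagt

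*E2F3* (chr6:20401629-20401928, plus strand): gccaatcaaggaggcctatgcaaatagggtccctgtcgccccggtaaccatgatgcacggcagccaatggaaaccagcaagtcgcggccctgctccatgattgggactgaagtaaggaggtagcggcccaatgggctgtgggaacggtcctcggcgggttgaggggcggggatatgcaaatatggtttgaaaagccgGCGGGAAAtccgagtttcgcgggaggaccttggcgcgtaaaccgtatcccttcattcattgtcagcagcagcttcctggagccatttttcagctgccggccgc

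*RBL1* (chr20:37095948-37096247, minus strand): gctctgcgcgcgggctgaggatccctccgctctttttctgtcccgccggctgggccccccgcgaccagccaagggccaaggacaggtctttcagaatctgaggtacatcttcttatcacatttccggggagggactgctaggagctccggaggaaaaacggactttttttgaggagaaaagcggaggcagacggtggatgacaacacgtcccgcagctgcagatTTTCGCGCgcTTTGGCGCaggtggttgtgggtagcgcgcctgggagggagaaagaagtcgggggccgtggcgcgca

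The leftmost base of the matches lay at positions −33 and −20 from the start in *E2F1*, −42 in *E2F2*, −53 in *E2F3* and −26 and −16 in *RBL1*. The *E2F1* and *RBL1* windows thus held 2 matches each and the *E2F2* and *E2F3* windows 1 each. The windows of *E2F4*, *E2F7* and *RBL2* and a second window of *E2F3* held none of these letters, and a match is a description of the sequence only. *E2F1* and *E2F2*, whose windows hold a match, had lower levels in every knockdown library than in any control library, whereas *E2F3* and *RBL1*, whose windows hold one too, overlapped between the groups, as given below.

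Values are TPM, a measure of transcripts that takes account of gene length and sums to the same total in each library. Comparisons of levels between genes rest on this scale, and the libraries' trends with GC content, described below, can touch them. Where 3 values of a group are given, they are in the order of replicates 1, 2 and 3. The TPM hold no read number, and depth is unknown. Between 13732 and 14094 genes reached 1 TPM in a library, and 8.75% to 11.1% of TPM came from mitochondrially encoded genes. *RAB30-DT*, the targeted RNA, had 11.51 to 18.16 TPM over the control libraries and 6.5 to 11.94 TPM over the knockdown libraries. These ranges overlap, and the difference did not pass the test (log2 fold change −0.55, limma adjusted p = 0.355). The deposited TPM of this 1 RNA thus did not separate the libraries by their label. With the GC trend of each library removed, as described below, all knockdown libraries lay below all control libraries for *RAB30-DT*, which held for 18.4% of all genes tested. *RAB30-DT* was still not called (−0.59, 95% interval −1.06 to −0.12, limma adjusted p = 0.109). The paper reports a separate qPCR check of the knockdown in SK-Hep1 cells. The paper calls SK-Hep1 endothelial-derived. The defining endothelial genes *PECAM1*, *KDR*, *CDH5* and *ERG* were at most 0.06 TPM in all 6 libraries, the hepatocyte genes *ALB*, *APOB*, *TTR* and *HNF4A* were listed at 0, and *VIM*, an intermediate filament of mesenchymal cells, had 3793 to 4784 TPM. A mean of 1 TPM was reached by 0 of 8 endothelial, 1 of 10 hepatocyte and 7 of 8 mesenchymal markers. The hepatocyte marker was *SERPINA1*, with 18.11 to 37.19 TPM. Of the mesenchymal markers, *COL1A1* and *TGFBI* were low, at most 2.41 and 2.89 TPM, and *COL1A2* was at most 0.12 TPM. The libraries differed in their trend with GC content, and these values are given beside the results they touch.

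None of the 10 genes passed the test between knockdown and control cells at an adjusted p under 0.05 (limma on log2(TPM + 1), adjusted over all 14020 genes), and 2, *E2F1* and *E2F2*, had an unadjusted p under 0.05, as did 16.8% of all genes tested. Over all genes tested, 0.67% were called lower, 0.371% higher and 1.04% in either direction, so that 0 of 10 is near the background. *E2F1* and *E2F2* were also the only 2 of the 10 in which every knockdown library lay below every control library, which held for 13.4% of all genes tested. In none of the 10 did the knockdown libraries all lie above the control libraries, against 9.89% of all genes tested. Of the 10 genes, 5 had a higher and 5 a lower mean of log2(TPM + 1) in knockdown cells, although *E2F5*, *E2F7*, *RB1*, *RBL1* and *RBL2* changed sign when single libraries were left out. The median of their log2 fold changes was −0.05, beside −0.04 over all genes tested, and single estimates ran from −1.34 for *E2F1* to 0.30 for *E2F3*.

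**Figure D1:**
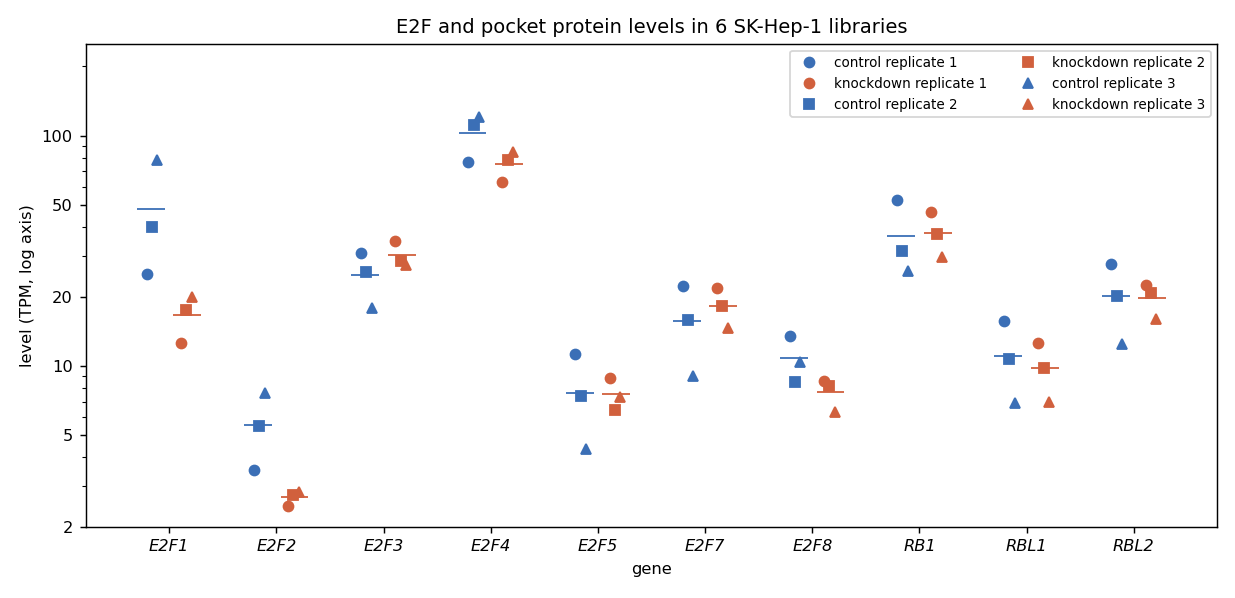
Level of each E2F and pocket protein gene (TPM, log axis) in the 6 libraries, with control libraries in blue, knockdown libraries in orange, the marker shape giving the replicate number and a line at each group mean. The 3 knockdown libraries lie below the 3 control libraries for *E2F1* and *E2F2* and overlap with them for the other 8 genes.

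*E2F1*, the activator E2F that drives entry into S phase, had 25.17, 40.08 and 78.59 TPM in the control libraries and 12.55, 17.55 and 19.86 TPM in the knockdown libraries. All knockdown libraries were below all control libraries, and control replicate 3 stood well above the rest. The means were 47.9 ± 27.6 and 16.7 ± 3.74 TPM (SD, n = 3 each), and the log2 fold change was −1.34 (standard error 0.38, 95% interval −2.23 to −0.46, limma adjusted p = 0.143). An exact two-sided permutation test of the TPM gave p = 0.1, the smallest that 3 libraries against 3 allow. In bulk RNA, fewer cells in a given phase of the cycle and less *E2F1* RNA per cell cannot be told apart. No annotated gene overlaps *E2F1*.

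*E2F2*, a second activator with a role close to that of *E2F1*, was the least abundant of the 10, with 3.54, 5.47 and 7.59 TPM in the control libraries. Its knockdown libraries had 2.47, 2.76 and 2.83 TPM. The groups did not overlap, and control replicate 1 was the nearest to the knockdown libraries. On the log2(TPM + 1) scale, which understates changes of genes this low, the fold change was −0.78 (standard error 0.28, 95% interval −1.42 to −0.14, limma adjusted p = 0.219).

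*E2F3*, the third activator, did not share this pattern. Its levels were 31.00, 25.61 and 17.92 TPM in the control libraries and 34.77, 28.59 and 27.30 TPM in the knockdown libraries. The groups overlapped, with control replicate 1 above knockdown replicates 2 and 3. The log2 fold change of 0.30 (95% interval −0.23 to 0.83, limma adjusted p = 0.550) had the opposite sign to those of *E2F1* and *E2F2*.

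As a ratio of TPM within each library, *E2F1* was at 0.81, 1.57 and 4.39 times *E2F3* in the control libraries and at 0.36, 0.61 and 0.73 times in the knockdown libraries. The highest knockdown ratio was below the lowest control ratio, and a ratio shows unequal change, not which of the genes changed. The transcripts of *E2F1* and *E2F3* have 61.6% and 46.3% GC, and the part of the libraries' GC trend in this ratio was not tested. *E2F1* supplied 13.7%, 18.8% and 31.6% of the summed TPM of the 7 E2F genes in the control libraries, and 8.26%, 10.9% and 12.2% in the knockdown libraries. *E2F3* supplied 7.21% to 16.9% in control and 16.8% to 22.9% in knockdown libraries, and these ranges just meet. The 3 activators together made up 32.5% to 41.9% of E2F transcripts in control and 30.5% to 32.8% in knockdown libraries.

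**Figure D2:**
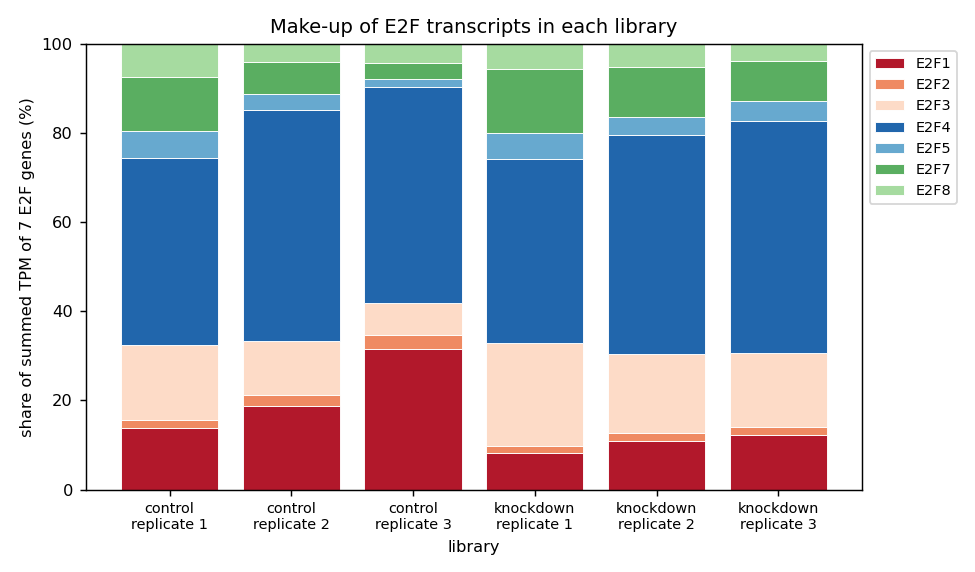
Share of each E2F gene (%) in the summed TPM of the 7 E2F genes, 1 bar per library. *E2F4* takes the most in every library, from 41.3% to 51.9%, and *E2F1* takes 13.7% to 31.6% in control against 8.26% to 12.2% in knockdown libraries.

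*E2F4*, the repressor E2F of resting cells, was the most abundant of the 10 genes in both groups. It had 76.93, 110.90 and 120.60 TPM in the control libraries and 62.75, 78.67 and 84.47 TPM in the knockdown libraries. The groups overlapped, because control replicate 1 was below knockdown replicates 2 and 3. The means were 102.8 ± 22.9 and 75.3 ± 11.2 TPM (SD, n = 3 each), with a log2 fold change of −0.43 (95% interval −0.92 to 0.06, limma adjusted p = 0.357).

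*E2F5*, the other repressor, had 11.25, 7.37 and 4.34 TPM in the control libraries and 8.89, 6.44 and 7.32 TPM in the knockdown libraries. The knockdown range lay wholly within the control range, and the log2 fold change was 0.05 (95% interval −0.67 to 0.78, limma adjusted p = 0.950). On the opposite strand it overlaps *RBIS*, which had up to 155 TPM. Whether reads were counted by strand is not given in the sources used here, so the *E2F5* values are uncertain.

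Of the atypical E2Fs, *E2F7* had 22.19, 15.74 and 9.06 TPM in the control libraries and 21.86, 18.20 and 14.59 TPM in the knockdown libraries. Again the control range enclosed the knockdown range, and the log2 fold change was 0.27 (95% interval −0.46 to 0.99, limma adjusted p = 0.705). *E2F8*, its closest relative, had 13.45, 8.47 and 10.37 TPM in the control libraries and 8.56, 8.19 and 6.33 TPM in the knockdown libraries. Only knockdown replicate 1 and control replicate 2 kept the groups from separating, at 8.56 and 8.47 TPM. The log2 fold change of *E2F8* was −0.42 (95% interval −0.95 to 0.11, limma adjusted p = 0.395). The estimates of the atypical genes had opposite signs, both intervals included 0, and that of *E2F7* turned negative (−0.054) without control replicate 3.

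The pocket proteins had estimates near 0 that changed sign when single libraries were left out, with intervals that still allow changes of up to 0.87 on the log2 scale. *RB1*, the retinoblastoma protein gene, had 52.28, 31.51 and 25.88 TPM in the control libraries and 46.58, 37.20 and 29.79 TPM in the knockdown libraries. In each group replicate 1 was highest and replicate 3 lowest, and the knockdown range lay within the control range. Its log2 fold change was 0.09 (95% interval −0.57 to 0.74, limma adjusted p = 0.905).

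*RBL1*, which encodes p107 and is itself cell cycle regulated, had 15.61, 10.67 and 6.92 TPM in the control libraries and 12.59, 9.76 and 6.95 TPM in the knockdown libraries. The log2 fold change was −0.13 (95% interval −0.87 to 0.60, limma adjusted p = 0.871). *RBL2*, which encodes p130, the pocket protein of resting cells, had 27.61, 20.18 and 12.43 TPM in the control libraries and 22.52, 20.74 and 15.93 TPM in the knockdown libraries, a log2 fold change of 0.03 (95% interval −0.64 to 0.70, limma adjusted p = 0.972). For both genes the knockdown range lay within the control range. *RBL2* overlaps *AKTIP* on the opposite strand, which had up to 35.8 TPM, so its values are uncertain for the same reason as those of *E2F5*. *RBL1* holds the pseudogene *RPS3AP3* on its own strand, with up to 7.96 TPM, which could share its reads.

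*RB1* supplied 50.5% to 57.2% of the summed TPM of the 3 pocket proteins in control and 54.9% to 57.0% in knockdown libraries, and *RBL1* 15.3% to 17.1% and 13.2% to 15.4%. The make-up of the pocket protein transcripts varied within these ranges, while the *E2F1* share of the E2F transcripts ran from 8.26% to 31.6%. The pocket protein transcripts have 37.1% to 42.8% GC and those of the E2F genes 43.1% to 61.6%. The part of the libraries' GC trend in these shares was not tested. *E2F1* was at 0.48, 1.27 and 3.04 times *RB1* in the control libraries and at 0.27, 0.47 and 0.67 times in the knockdown libraries. This ratio overlapped between the groups, unlike that of *E2F1* to *E2F3*.

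By mean TPM, the order in control cells was *E2F4*, *E2F1*, *RB1*, *E2F3*, *RBL2*, *E2F7*, *RBL1*, *E2F8*, *E2F5* and *E2F2*, from 102.8 down to 5.53 TPM. Each gene overlapped its neighbour in this order over the 3 control libraries. In knockdown cells *E2F1* stood sixth, after *E2F4*, *RB1*, *E2F3*, *RBL2* and *E2F7*, and the other genes kept their order. There, the ranges of *E2F4* and *RB1*, of *E2F3* and *RBL2*, and of *E2F5* and *E2F2* did not overlap, whereas those of the other neighbours did. The part of the libraries' GC trend in these orders was not tested.

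In hg38 and GENCODE version 44, *E2F1* lies at chr20:33675477-33686385 on the minus strand, with 7 exons in its canonical transcript, *E2F2* at chr1:23506438-23531233 (minus, 7 exons) and *E2F3* at chr6:20401879-20493714 (plus, 7 exons). *E2F4* lies at chr16:67192155-67198918 (plus, 10 exons) and *E2F5* at chr8:85177154-85217158 (plus, 8 exons). The atypical *E2F7* lies at chr12:77021248-77065569 (minus, 13 exons) and *E2F8* at chr11:19224063-19241620 (minus, 13 exons). *RB1* lies at chr13:48303744-48599436 (plus, 27 exons), *RBL1* at chr20:36996349-37095997 (minus, 22 exons) and *RBL2* at chr16:53433977-53491648 (plus, 22 exons).

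Within the groups, the genes were split by the GC content of their transcripts. *E2F1*, *E2F4* and *E2F2* have the GC-richest canonical transcripts of the 10 (61.6%, 58.1% and 57.4%), and in these control replicate 3 exceeded control replicate 1, by 1.60, 0.64 and 0.92 on the log2(TPM + 1) scale. In the other 7, with 37.1% to 46.9% GC, control replicate 3 was lower than control replicate 1, by between 0.35 (*E2F8*) and 1.20 (*E2F7*). The same split was found between knockdown replicates 3 and 1, at 0.14 to 0.62 for the first 3 genes and −0.77 to −0.25 for the other 7. Over all genes tested, Spearman's rho between GC content and a library's deviation from the gene mean was −0.607 and 0.489 for control replicates 1 and 3, and −0.523 and 0.330 for knockdown replicates 1 and 3, as a description across genes, which are not independent. The part of the GC trend in the spread of single genes was not tested beyond its removal, given next.

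**Figure D3:**
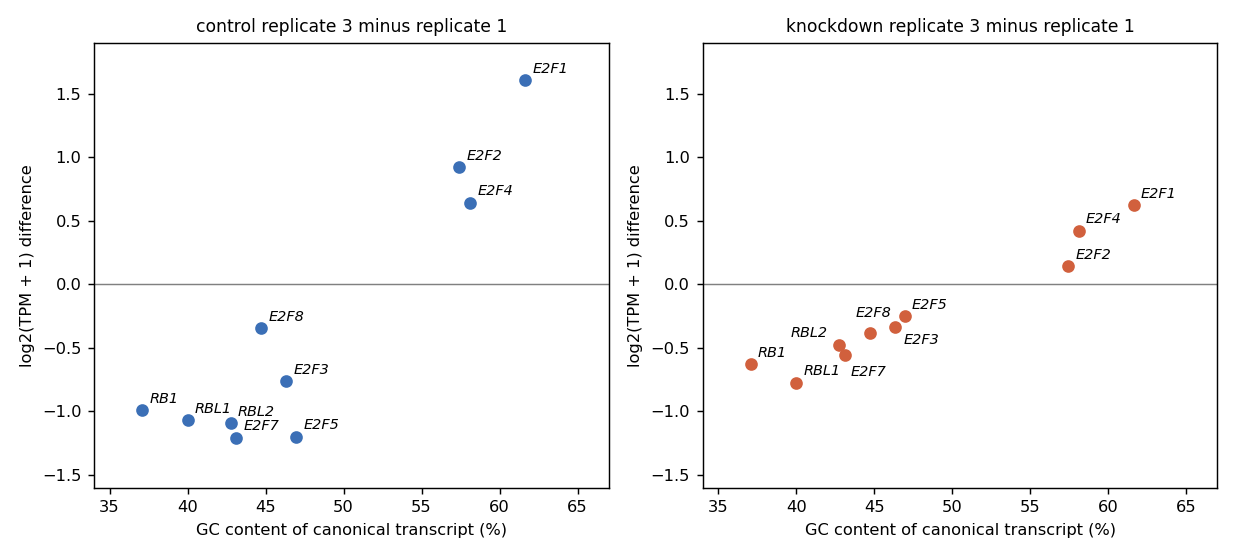
Difference in log2(TPM + 1) between replicate 3 and replicate 1 within the control group (left) and within the knockdown group (right), against the GC content of the canonical transcript (%), 1 point per gene. In both groups *E2F1*, *E2F2* and *E2F4* lie above 0 and the other 7 genes below.

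With each library's trend on GC content removed, 1 of the 10 genes, *E2F1*, was called lower (log2 fold change −1.25, 95% interval −1.88 to −0.61, limma adjusted p = 0.0357), where 4.83% of all genes tested were called lower. The intervals of *E2F2* (−1.18 to −0.25, limma adjusted p = 0.0681), *E2F4* (−0.62 to −0.09, limma adjusted p = 0.0931) and *E2F8* (−0.81 to −0.06, limma adjusted p = 0.134) lay below 0, but these genes did not pass the threshold over all genes. *RB1* was estimated at 0.04 (−0.24 to 0.32), *RBL1* at −0.16 (−0.55 to 0.23) and *RBL2* at 0.02 (−0.38 to 0.42), so the intervals of the pocket proteins narrowed and still included 0. In this scale all knockdown libraries were below all control libraries for *E2F1*, *E2F2*, *E2F4* and *E2F8* and above them for *E2F3*. Over all genes tested on this scale, 18.4% lay below and 16.3% above in this way.

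**Figure D4:**
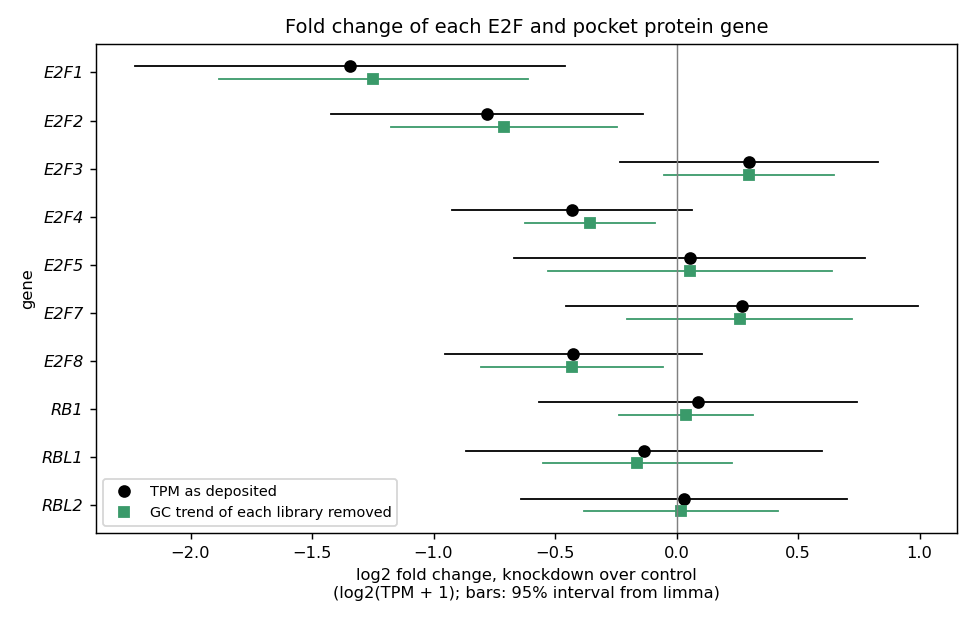
Log2 fold change of each gene, knockdown over control, on the log2(TPM + 1) scale, from the TPM as deposited (black circles) and with the GC trend of each library removed (green squares), with bars giving the 95% interval from limma. *E2F1* is lowest in both, at −1.34 and −1.25, and the pocket proteins lie between −0.16 and 0.09.

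The call of *E2F1* depended on how the libraries were weighted. Without control replicate 1 it was called lower (limma adjusted p = 0.0313), whereas leaving out any of the other 5 libraries left it short of the threshold, with estimates between −1.72 and −0.92 over all 6 such fits. With limma's arrayWeights, which weights each library by its fit, *E2F1*, *E2F2* and *E2F4* were called lower (adjusted p = 0.00562, 0.0146 and 0.0311), where 13.8% of all genes tested were called lower. With a replicate block *E2F1* alone of the 10 was called (limma adjusted p = 0.0296), where 3.92% of all genes tested were called lower, although the replicate numbers were not shown to pair the libraries.

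The partners of E2F and of the pocket proteins were described as a list of 10 genes, the DP proteins, *E2F6*, the MuvB core and *MYBL2* and *FOXM1*. The median of the log2 fold changes was −0.18, with 9 genes lower and 1 higher, where 53.7% of all genes tested were lower. The number lower was 8 with median-of-ratios scaling or the GC trend removed and 7 with quantile normalization. It was 7 to 9 when a library was left out. Of the 10, 1 was called lower, beside 0.67% of all genes tested. That gene, *RBBP4*, encodes a histone-binding protein shared by MuvB and by the deacetylase complexes that pocket proteins recruit. Its level was 252.56, 205.66 and 187.76 TPM in the control libraries and 60.75, 64.23 and 48.52 TPM in the knockdown libraries. It fell by 1.88 on the log2 scale (95% interval −2.29 to −1.46, limma adjusted p = 0.00733), with all knockdown libraries far below all control libraries, and lost its call in 1 alternative, without control replicate 2 (limma adjusted p = 0.0562).

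*MYBL2*, a target of E2F that joins MuvB in S phase, had the next lowest estimate, −0.67 (limma adjusted p = 0.152). *LIN37*, a subunit of MuvB needed for DREAM repression, and the DP gene *TFDP2* had the highest, at −0.0050 and 0.0042 (limma adjusted p = 0.994 and 0.995), with signs that changed with scaling for *LIN37* and with arrayWeights for *TFDP2*. A binding partner of most E2Fs, *TFDP1*, was abundant, with 193 to 270 TPM over the 6 libraries, and its groups overlapped.

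A list of 17 genes covered the G1 kinases and cyclins that phosphorylate the pocket proteins and the inhibitors of these kinases, together with the phosphatase *CDC25A*, which activates CDK2, and *SKP2*, a ubiquitin ligase subunit that targets p27. Of these, 14 were tested, 10 with a lower and 4 with a higher estimate, where 53.7% of all genes tested were lower. The only one called, where 0.371% of all genes tested were called higher, was *CDKN1A*, which encodes the kinase inhibitor p21. It had 73.92, 122.13 and 87.28 TPM in the control libraries and 232.09, 282.80 and 402.34 TPM in the knockdown libraries, with no overlap. The gene rose by 1.68 on the log2 scale (95% interval 1.09 to 2.26, limma adjusted p = 0.0293), and kept its call without control replicate 1. It lost the call without any other single library (limma adjusted p from 0.0585 to 0.153).

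*CDK2*, the kinase that acts with cyclin E on the pocket proteins, and *CCND3*, a D-type cyclin, had the lowest estimates, −0.78 (limma adjusted p = 0.102) and −0.66 (limma adjusted p = 0.205). In both, all knockdown libraries were below all control libraries, as in 13.4% of all genes tested. Another D-type cyclin, *CCND1*, had an estimate of the opposite sign, 0.45 (limma adjusted p = 0.152). It had 250.88, 300.32 and 295.94 TPM in the control libraries and 367.21, 379.54 and 406.06 TPM in the knockdown libraries. All its knockdown libraries were above all control libraries, as in 9.89% of all genes tested. *CDK6*, a partner of D-type cyclins, had the second highest estimate, 0.52 (limma adjusted p = 0.502), and its groups overlapped. *CDKN2A* and *CDKN2B*, which encode the INK4 inhibitors p16 and p15, were listed at 0 in all 6 libraries, and *CCND2* was at most 0.11 TPM, so none of the 3 was tested.

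The E2F targets of G1/S were described as a list of 38 genes for DNA replication and nucleotide synthesis. All 38 had lower estimates in knockdown cells, against 53.7% of all genes tested, and the median of their log2 fold changes was −0.73, beside −0.04 over all genes tested. In 32 of the 38 the knockdown libraries all lay below the control libraries, where 13.4% of all genes tested showed this. At an adjusted p under 0.05, 4 were called lower and 0 higher, beside 0.67% and 0.371% of all genes tested, and 34 had an unadjusted p under 0.05, against 16.8% of all genes tested. The genes were measured in the same 6 libraries and are not independent of each other. This list, like the other lists here, was drawn up with earlier results of these data known. Its shares are therefore a description and not a test.

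The 4 called were *MCM3*, *MCM4* and *MCM6*, subunits of the replicative helicase, and *CDC45*, which activates it. *CDC45* had 56.75, 55.12 and 85.43 TPM in the control libraries and 26.06, 30.78 and 26.14 TPM in the knockdown libraries, and fell by 1.20 on the log2 scale (limma adjusted p = 0.0470). *MCM3* had 123.19, 111.60 and 132.68 TPM in the control libraries and 56.01, 59.98 and 54.78 TPM in the knockdown libraries, and fell by 1.09 (limma adjusted p = 0.0252). In both genes the knockdown libraries lay below all control libraries and close to each other. *MCM4* fell by 0.98 (limma adjusted p = 0.0291) and *MCM6* by 1.07 (limma adjusted p = 0.0417).

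The 2 highest estimates of the list were those of *SLBP*, which binds histone mRNA, at −0.27 (limma adjusted p = 0.447), and of the licensing factor *CDT1*, at −0.30 (limma adjusted p = 0.598), and both overlapped between the groups. With the GC trend removed 28 of the 38 were called lower, where 4.83% of all genes tested were, and with arrayWeights 31, where 13.8% were. The number called was 10 without control replicate 1 and 0 without control replicate 2 or any knockdown library, while all 38 estimates were below 0 in each of these fits. The E2F motif given above was found in the promoter windows of 22 of 33 G1/S genes with a window (66.7%), against 3.99% of all 27305 genes with one. The list was made of genes classed as E2F targets, so this share is a description and not a test. Genes that were not tested also count among the 27305.

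The 30 genes of G2/M, which the DREAM complex and the MuvB proteins control through another element, also all had lower estimates, beside 53.7% of all genes tested, with a median of −0.35. The knockdown libraries all lay below the control libraries in 13 of the 30, and in 13.4% of all genes tested. Only *AURKA*, a mitotic kinase of the spindle poles, was called, where 0.67% of all genes tested were called lower, with 148.79, 149.62 and 173.91 TPM in the control libraries and 77.50, 73.60 and 74.97 TPM in the knockdown libraries. It fell by 1.05 (limma adjusted p = 0.0252) without overlap, a call lost without control replicate 2 or any knockdown library (limma adjusted p from 0.101 to 0.153). *PLK1*, another mitotic kinase, had −0.73 (limma adjusted p = 0.0808). The highest estimates were those of *HMMR* and *CENPF*, which act at the spindle and the kinetochore, at −0.10 and −0.13 (limma adjusted p = 0.893 and 0.830), and these 2 estimates turned positive with quantile normalization, with arrayWeights and without control replicate 1 or knockdown replicate 3. *CENPE* turned positive in the last 2 of these fits and *ECT2* without control replicate 1, so that 26 to 30 of the 30 estimates were lower when a library was left out. The CHR element of these genes, TTTGAA, was found on either strand in the windows of 18 of 25 of these genes (72.0%), against 18.2% of all genes with a window, tested or not. The list was made of genes classed as DREAM targets, so this share too is a description and not a test.

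**Figure D5:**
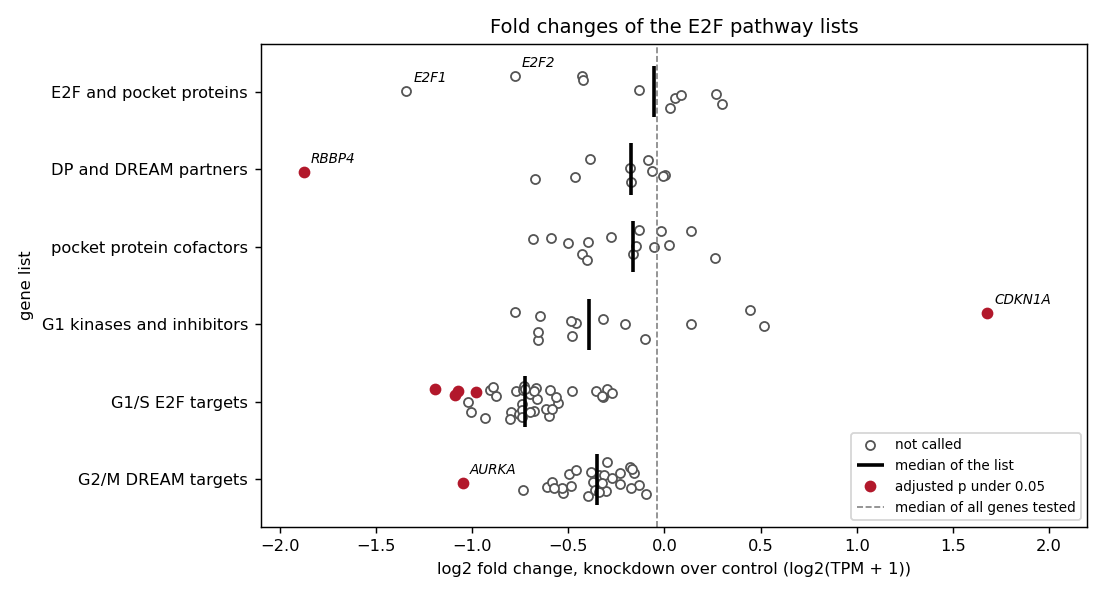
Log2 fold change (knockdown over control, log2(TPM + 1) scale) of each tested gene of the 6 lists, with called genes in red, the median of each list as a black bar and the median of all genes tested as a dashed line. The E2F and pocket protein genes centre near 0 (median −0.05), the G1/S targets lie wholly below it (median −0.73), and *CDKN1A* is the only called gene above it.

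*E2F1* was itself below the lowest of the G1/S targets, with −1.34 against −1.20 for *CDC45*, and had a wider interval than that gene, whose interval was −1.68 to −0.71. *E2F2* at −0.78 was near the median of the G1/S list, and *E2F8* at −0.42 near that of the G2/M list. The estimates of *E2F3*, *E2F5*, *E2F7* and *RB1*, from 0.05 to 0.30, and of *RBL2* at 0.03 lay above every G1/S and G2/M target. These differences between genes were not tested.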

How the data were processed

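RNA was sequenced from 6 SK-Hep1 libraries, 3 control and 3 RAB30-DT knockdown, grouped by their titles. Per the study's methods, the authors trimmed reads with fastp 0.23.2, aligned them with STAR 2.7.10b, sorted with samtools 0.1.9, quantified with RSEM 1.3.0 against GENCODE Release 45 and deposited TPM per gene. The submitters' processing notes name HISAT2 2.0.5 and hg38 instead, and every gene identifier matched GENCODE version 44, which gave names, positions and GC content. TPM are relative to a library's total, keep no depth, and were given to 2 decimals.

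Values were fitted as log2(TPM + 1) with limma 3.58.1 in R 4.3.3 (lmFit, eBayes with trend, 2-sided, no normalization between libraries) for genes that averaged 1 TPM or more, with Benjamini-Hochberg adjustment over all of them and calls at an adjusted p under 0.05. Fold changes on this scale understate those of low genes. Alternatives were a pseudocount of 0.1 or 5, a filter at 5 TPM or none, median-of-ratios and quantile scaling, removal of mitochondrially encoded genes, eBayes without trend or robust, arrayWeights (gene by gene), a loess GC trend (span 0.3) removed per library, a replicate block, and each library left out. Single genes also had an exact permutation test over the 20 assignments of libraries. Promoter windows came from RefSeq tables. The table's *RB1* window lay 172706 bases from the annotated start and was not used, and windows of *E2F5* and *E2F8* were not analysed here.

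The members and the lists were chosen with earlier results of these data known. All 10 members were named. From each other list, the genes called and the 2 highest and 2 lowest fold changes were named, with *TFDP1*, *E2F6*, *CDKN2A*, *CDKN2B*, *CCND1*, *CCND2*, *CDC25A*, *SKP2*, *CENPE* and *ECT2* added after their values were seen.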

Additional observations from a re-analysis of the deposited data

How the results depend on the processing

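Against 146 genes called in all, arrayWeights called 3218, removal of the GC trend 1232, and the fit with no filter 13. Leaving out a library gave 12 to 489 calls, the fewest without control replicate 2 and the most without control replicate 1. There were 160 without control replicate 3, and 18, 15 and 16 without knockdown replicates 1, 2 and 3. Of the 10 E2F and pocket protein genes, 3 were called with arrayWeights and 1 with the GC trend removed, and 0 to 1 when a library was left out. Of the 10 DP and DREAM partners, 3 were called in each of these fits (1 in the report), and 0 to 2 without a library. Of the 15 cofactors, 5 and 3 were called (0 in the report), and 0 to 1 without a library. Of the G1 kinases and inhibitors, 7 and 3 were called, 0 without a filter or without the eBayes trend (1 in the report), and 0 to 2 without a library. Of the G1/S targets, 31 and 28 were called, 0 without a filter, 2 with median-of-ratios scaling and 1 without the eBayes trend (4 in the report), and 0 to 10 without a library. Of the G2/M targets, 10 and 5 were called, 0 without a filter (1 in the report), and 0 to 2 without a library. Fits without a library also rest on fewer libraries, and the cause of these shifts was not tested.

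The replicate numbers are shared by the groups, and deviations of same-numbered libraries from their group means correlated at 0.410, 0.0359 and 0.279. Libraries of different numbers were not compared in this way, so these values cannot show whether a shared number is a pair. Spearman's rho with GC content was −0.607, 0.297 and 0.489 for control replicates 1, 2 and 3. For the knockdown replicates it was −0.523, 0.022 and 0.330, in the same order. Whether the numbers mark pairs was not tested, and the main fit used none. With a replicate block, 861 genes were called in all, and 1, 2, 1, 3, 26 and 4 of the members, partners, cofactors, G1 kinases, G1/S and G2/M lists. With the block and the GC trend removed together these were 1056, and 1, 2, 3, 3, 25 and 4.

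Estimates near 0 changed sign. *E2F5* was −0.085 with arrayWeights and ran from −0.25 to 0.34 when a library was left out, *E2F7* from −0.054 to 0.55, *RB1* from −0.12 to 0.37, *RBL1* from −0.41 to 0.13 and *RBL2* from −0.26 to 0.28. *TFDP2* was −0.30 with arrayWeights and ran from −0.12 to 0.12, and *LIN37* was 0.031 with median-of-ratios scaling, 0.033 with quantile normalization, 0.078 with the GC trend removed, with or without the block, and ran from −0.12 to 0.16. *HMMR* was 0.0197 with quantile normalization and 0.0901 with arrayWeights and ran from −0.27 to 0.15, and *CENPF* was 0.0104 and 0.0450 and ran from −0.32 to 0.0909. Of all single-gene values under an alternative, 527 kept direction and side of the threshold, 29 passed it, 40 lost it and 30 changed sign.

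TPM hold no depth, so the precision of low genes such as *E2F2* rests on 3 libraries per group. The levels are RNA, and phosphorylation of the pocket proteins was not measured.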

Other observations

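Of the 15 chromatin cofactors that pocket proteins recruit, 12 had lower and 3 higher estimates in knockdown cells, where 53.7% of all genes tested were lower. The median of these fold changes was −0.16 on the log2 scale, and 0 were called by limma at an adjusted p under 0.05, beside 1.04% of all genes tested, while 4 had an unadjusted p under 0.05, beside 16.8%. The lowest were *SUV39H1*, a histone H3 methyltransferase, at −0.68 (limma adjusted p = 0.276) and the deacetylase *HDAC1* at −0.59 (limma adjusted p = 0.119). *HDAC1* had 177.90, 162.93 and 139.85 TPM in the control libraries and 111.59, 107.99 and 98.19 TPM in the knockdown libraries, without overlap, whereas the *SUV39H1* groups overlapped. *HDAC1*, its paralog *HDAC2* and the corepressor *CTBP2* were the 3 called lower with the GC trend removed (limma adjusted p = 0.0208, 0.0305 and 0.0259), beside 4.83% of all genes tested, the last 2 named after their values were seen. *KDM5A*, a histone demethylase that binds RB1, and the corepressor *SIN3B* had the highest estimates, 0.26 and 0.14 (limma adjusted p = 0.704 and 0.733).

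The genes whose level over the 6 libraries was most like that of *E2F1* were *HKDC1*, *TENT5B* and *UBE2S*, at Euclidean distances of 0.386, 0.413 and 0.418 between mean-centred log2(TPM + 1) values. *UBE2S*, for example, had 323.36, 738.55 and 1287 TPM in the control libraries and 208.70, 261.62 and 338.54 TPM in the knockdown libraries. All 3 have transcripts of over 50% GC (53.3%, 62.6% and 55.7%), and control replicate 3 was highest for each. For *RB1* the nearest were *CYP2R1*, *GTF2F2* and *BNIP2*, at 0.0846, 0.0919 and 0.0956, with 36.9% to 41.9% GC and control replicate 1 highest for each. The distances cover 6 libraries that share these trends with GC content.

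The 7 bases GAGTGAA, which were picked from these data as common in the 3′UTRs of genes with lower levels, occur in the 3′UTR of 12.4% of 11673 tested genes. Of the 10 E2F and pocket protein genes only *RBL2* holds them, within chr16:53490902-53490928 on the plus strand of hg38, and *RBL2* had a log2 fold change of 0.03. Of the 10 partners 2 hold them, *E2F6*, with a log2 fold change of −0.08, and the called *RBBP4*, within chr1:32680444-32680470 on the plus strand. They occur in 1 of the 38 G1/S targets (2.63%) and 0 of the 30 G2/M targets, lists in which all estimates were lower. Because the bases were picked from these data, their presence in a lower gene is not a test. Whether they bear on any level was not tested. The sites of *RBL2* and *RBBP4* are shown, with the 7 bases in capitals and 10 bases on each side.

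*RBL2*: tgcaatgtctGAGTGAAcctgtataag

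*RBBP4*: aagttgagaaGAGTGAAtcaataactt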
